A study of Mus musculus with 9 samples.

Results

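Gene expression was compared between granulocyte-macrophage progenitors (GMPs) null for Dicer1 and wild-type GMPs. The comparison takes the 3 arrays titled as null and the 3 titled as wild type, 6 of the 9 arrays in the series. GMPs are bone marrow cells committed to the neutrophil and monocyte lineages. All were EYFP-positive GMPs sorted from the marrow of C57BL/6 recipient mice. These recipients were 6 to 8 weeks old when irradiated with 8.5 Gy and injected with fetal liver cells of embryonic day 13.5, and their marrow was taken 6 to 10 weeks later. The donor cells carried Cebpa-Cre, a Cre recombinase driven by Cebpa, and R26-LSL-Eyfp, a reporter that Cre switches on. The labels give all 9 arrays 1 shared entry for the donors' Dicer1 alleles, Dicer1wt/fl/Dicer1fl/fl, and set the groups apart as Dicer null, Dicer wild type and Dicer heterozygous deletion. The 3 heterozygous arrays enter the shared estimate of spread, and their values are given beside those of a few genes. Cre and the reporter are thus listed for every group, and deletion can take place only in cells with a history of Cebpa expression. The labels describe all samples as female and do not tie arrays to fetal livers, each of which was typically given to more than 1 recipient.

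Dicer1 is the ribonuclease that cuts precursor hairpins into mature microRNAs. A mature microRNA is held by an Argonaute protein, pairs through its seed with sites mostly in 3′ untranslated regions, and recruits TNRC6 proteins and deadenylases that lower the level of the messenger RNA. Loss of Dicer1 therefore removes a repressor from many transcripts at once, and several microRNA families, among them miR-223 and miR-142, are known to be abundant in myeloid cells.

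The arrays did not measure mature microRNAs. Sequences are shown for the families whose described targets are named below, because the targets are grouped by them, and not for those given by counts alone. They come from RefSeq (GRCm38.p6), and capitals mark the seed, bases 2 to 8 from the 5′ end. Of 23 microRNA names looked up, 20 matched.
let-7a-5p: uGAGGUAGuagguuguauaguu
miR-17-5p: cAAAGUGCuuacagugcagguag
miR-20a-5p: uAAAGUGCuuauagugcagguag
miR-106a-5p: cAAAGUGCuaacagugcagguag
miR-142a-3p: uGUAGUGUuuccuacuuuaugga
miR-223-3p: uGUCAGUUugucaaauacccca
miR-27a-3p: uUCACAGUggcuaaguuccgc
miR-24-3p: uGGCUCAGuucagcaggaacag
miR-155-5p: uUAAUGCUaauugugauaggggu
miR-21a-5p: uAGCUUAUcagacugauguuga
miR-196a-5p: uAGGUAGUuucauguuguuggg
The seed AAAGUGC is shared by miR-17, miR-20a and miR-106a, while the other 8 sequences each have a seed of their own.

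The values are MAS5 signals, brightness on a linear scale with a trimmed mean of 100 on every array. Across the genes tested, log2 values correlated at 0.9869 to 0.9878 among null arrays, 0.9835 to 0.9876 among wild-type arrays and 0.9721 to 0.9788 between the groups. Wild-type replicate 2 stands apart in sex-linked transcripts, where the signal of Xist was 2610 and that of Eif2s3y 1.13, while the other 5 arrays compared had 16.4 to 30.2 and 746 to 859. Low Xist with Eif2s3y, a gene of the Y chromosome, was also found on the 3 heterozygous arrays. The sorted cells came from the fetal donors and not from the recipients. If the label female describes the donors, wild-type replicate 2 matches it and the other 8 arrays go against it. Without wild-type replicate 2, 1445 genes were called in place of 1937. The ratio of the 3′ to the 5′ control probe set of Gapdh, a measure of how far labelling reached along a transcript, was 6.90 ± 0.468 (SD, n = 3) in wild type and 7.47 ± 0.323 in null cells. For Actb it was 8.87 ± 1.51 and 7.73 ± 0.485 (SD, n = 3). The ranges of the groups overlapped for both genes.

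The labelled cell type was borne out by its markers. Mpo, Prtn3, Ctsg and Ms4a3, genes of the primary granule and of committed GMPs, read between 3811 and 9107 on all 6 arrays, and none of these 4 was called. Of transcripts that define B and T cells, Cd79a, Cd3d, Cd3e and Cd3g lay at or under 11.3. The B-cell genes Pax5 and Ms4a1 reached 13.5 and 16.3. Cdh5 of endothelium and Col1a1 of stroma reached 17.1 at most, and Kdr of endothelium 37.3. The megakaryocyte gene Pf4 read 25.2 to 189 in wild type and 17.7 to 41.0 in null cells, and the erythroid factor Klf1 7.20 to 118 and 20.4 to 48.5. The highest value of both was on wild-type replicate 2. The globin gene Hbb-b2 was dim but called higher, with all null values, 28.5 to 32.6, above the wild-type ones. Its call was lost in at least 1 fit that left out an array. Of the 16 genes in the GMP marker list, Csf2rb, Fcgr3 and Gfi1 rose and Csf3r and Irf8 fell. The calls of Csf3r and Irf8 were each lost in at least 1 fit that left out an array, and that of Fcgr3 with no intensity trend in the variance prior.

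Differences are given as log2(signal + 12) in null minus wild type, so that 1 is a 2-fold difference, and dim genes are understated. A call is a limma adjusted p under 0.05 over all 12347 genes tested, each represented by its brightest probe set. By this rule 1937 genes were called, 15.7% of those tested, 938 of them higher in null (7.6%) and 999 lower (8.09%). Null replicate 3 weighed on this count, which was 1258 without it, with 627 lower. Most calls were of modest size, with a median absolute difference of 0.52 among called genes. At least 2-fold were 96 genes that rose (0.778%) and 68 that fell (0.551%). A gene named below as risen or fallen stayed called in every fit that left out 1 of the 9 arrays, unless a sentence says otherwise, and 504 risen and 457 fallen genes did so. The 3 null values lay above all 3 wild-type values for 1738 genes (14.1%) and below them for 2340 (19%).

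The targeted gene was lower on every null array. Dicer1 signals were 244, 228 and 223 in wild type and 115, 101 and 97.2 in null cells. The groups lay apart, and the difference was -1.07 (SE 0.11, limma adjusted p = 1.88e-05). The second Dicer1 probe set gave -1.12 (SE 0.12, limma adjusted p = 6.32e-05). Since no label places the deleted exon relative to the probes, the extent of deletion cannot be read from these signals.

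**Figure D1:**
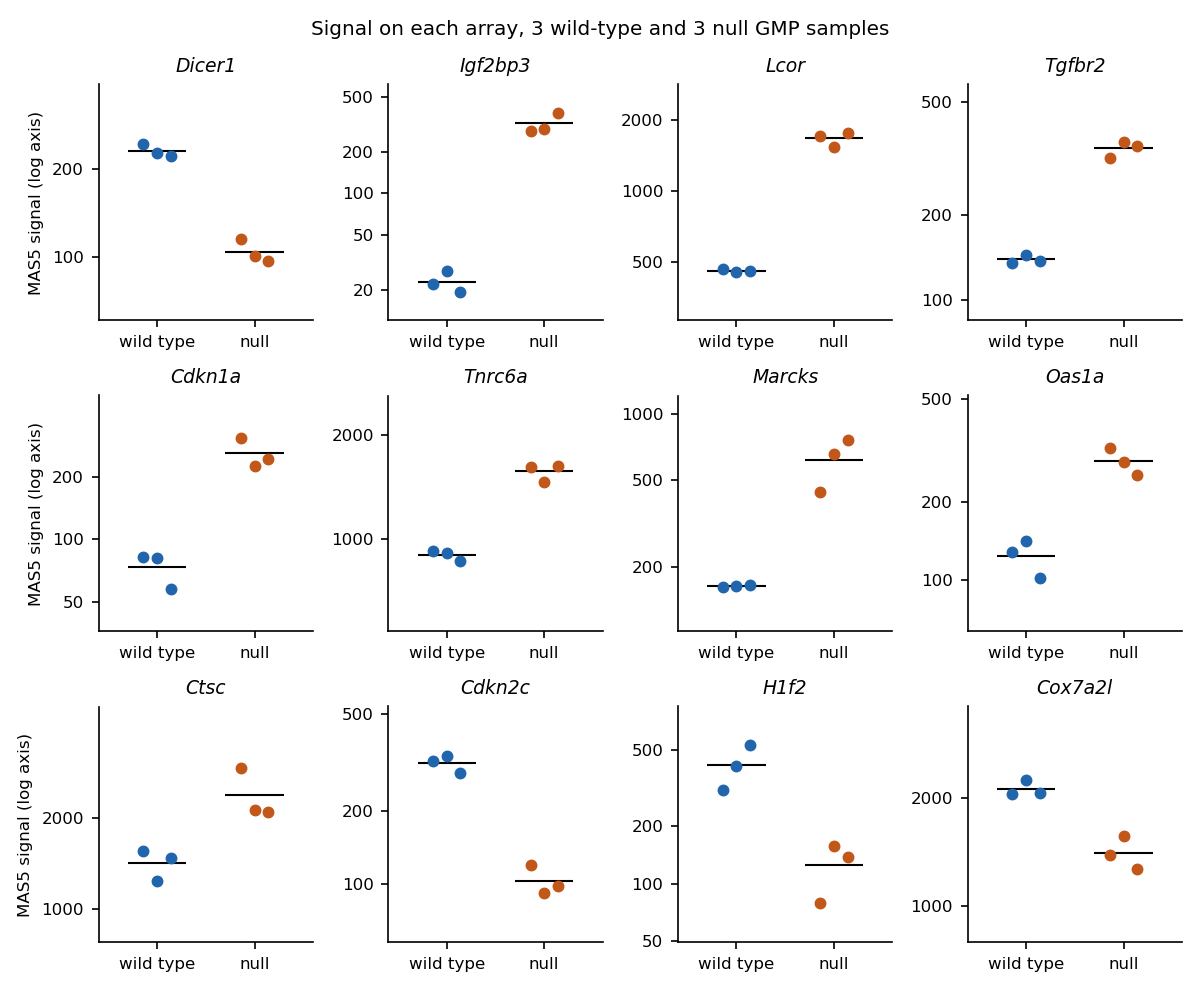
MAS5 signal on a log axis of 12 genes described in the text, with 1 point for each of the 3 wild-type and 3 null arrays and a line at the group mean. In each of the 12 panels the groups do not overlap, with Dicer1, Cdkn2c, H1f2 and Cox7a2l lower and the other 8 genes higher in null cells.

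Many genes carry several probe sets on the array, and these allow a check within the same RNA. At the level of probe sets, 2759 of 22365 were called, 12.3%, with 1322 higher (5.91%) and 1437 lower (6.43%). Of the genes called by their brightest probe set, 1143 had at least 1 other tested probe set. In 752 of these (65.8%) every other probe set had the same sign, and in 360 (31.5%) at least 1 other was called the same way. A probe set called in the opposite direction was found in 26 (2.27%). The next-brightest probe set had the same sign in 81% of the 1143 called genes, against 63.1% of the 4534 genes with several probe sets that were not called. Large changes held more often than small ones, with no test of the difference. At least 1 other probe set was called the same way in 47 of 76 genes changed at least 2-fold (61.8%) and in 313 of 1067 changed less (29.3%). Probe sets of a gene share the labelled RNA and can share probes, so they are not replicates.

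**Figure D2:**
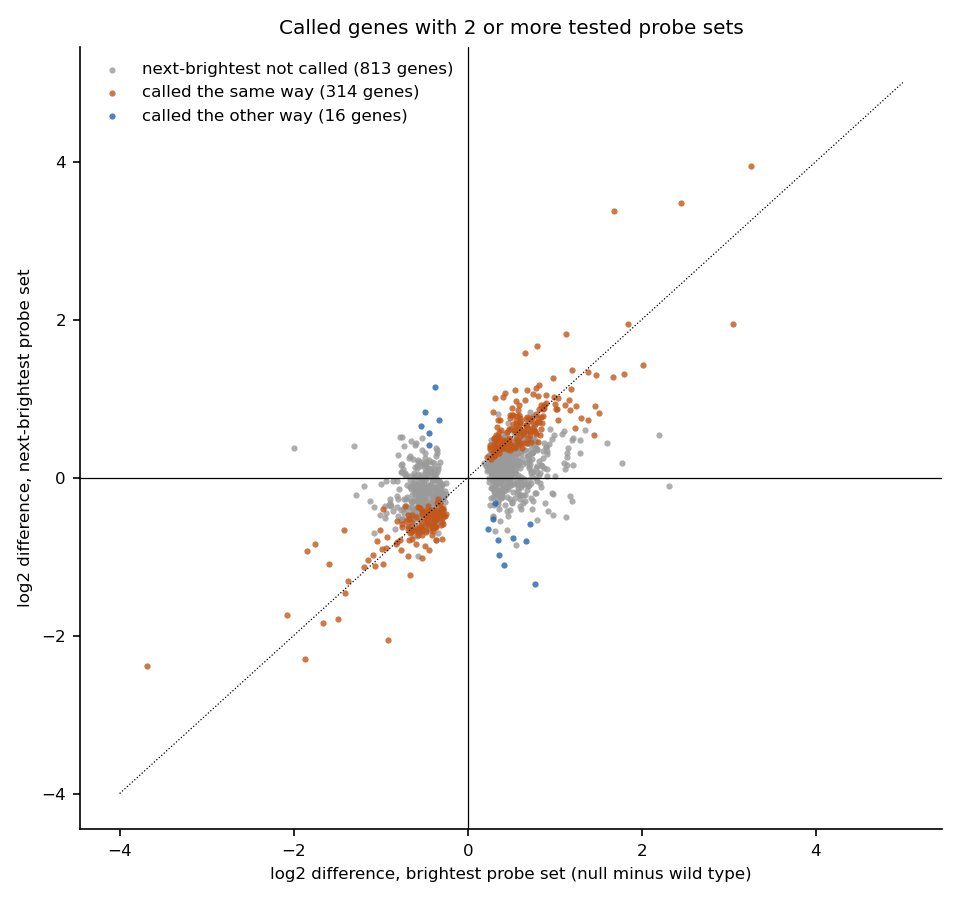
Log2 difference of the next-brightest probe set (by mean signal over the 6 arrays) against that of the brightest, for 1143 called genes with at least 2 tested probe sets, null minus wild type. Of these genes, 314 have a next-brightest probe set called the same way and 16 one called the other way, and the dotted line marks equality.

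The strictest form of agreement, every tested probe set called the same way, was met by 72 risen genes (1.27% of the 5677 with at least 2 tested probe sets) and 57 fallen ones (1%). The sum of 129 dropped to 85 without wild-type replicate 2, 79 without wild-type replicate 3, 75 without null replicate 1 and 65 without null replicate 3. With 3 or more tested probe sets there were 16 risen and 10 fallen genes. Igf2bp3, an RNA-binding protein of fetal cells, led them. Its brightest probe set read 21.9, 27.4 and 19.2 in wild type and 285, 295 and 386 in null cells. The null values all lay above the wild-type ones, and the 6 probe sets gave differences from 0.97 to 3.94. The heterozygous arrays read 243, 223 and 246, between the groups and nearer to null. Paip1 encodes a partner of the poly(A)-binding protein that promotes translation. Its signals were 163, 192 and 213 in wild type and 594, 661 and 636 in null cells. No values overlapped, and its 3 probe sets gave 1.68 to 3.37, with 473, 585 and 591 on the heterozygous arrays.

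Other genes risen on all of at least 3 probe sets had varied functions. B4galt6 makes lactosylceramide, and its 4 probe sets gave 0.92 to 1.11. Galnt7, which starts or extends O-linked sugar chains, gave 0.67 on each of 3 probe sets. Wwp1, a ubiquitin ligase, gave 0.78 to 0.95, and Fnip1, a folliculin partner in nutrient sensing, 0.66 to 0.99. Ctsc, the protease that activates granule serine proteases, gave 0.74 to 0.84. The ER gene Tmx4, the pseudophosphatase gene Styx and Bpnt2 also met the rule. Selp, the adhesion receptor P-selectin, met it too, but its brightest probe set read 7.69, 137 and 13.4 in wild type and 107, 173 and 209 in null cells. Wild-type replicate 2 lay within the null range there, and the Selp call was lost in 4 fits that left out 1 array, with adjusted p up to 0.0915. Ro60 was lost in 3 such fits, with adjusted p up to 0.0747.

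Among the genes that fell on every probe set, Tfpi, an inhibitor of coagulation, had 4. Tfpi signals were 766, 770.1 and 611 in wild type and 293, 353 and 141 in null cells. The heterozygous arrays, at 291, 288 and 162, overlapped the null ones. Null and wild-type ranges did not meet, and the 4 differences ran from -1.78 to -0.78. H2-Aa, a chain of MHC class II, read 113, 146 and 212 in wild type and 64.9, 49.5 and 41.8 in null cells. It was lower on every null array, at -1.37 to -0.79 over 3 probe sets. Ndufa7, a subunit of respiratory complex I, gave -0.72 to -0.52 over 5 probe sets. Cox7a2l, which joins respiratory complexes, gave -0.59 to -0.50 over 3, and the nucleosome-binding gene Hmgn1 -0.59 to -0.53 over 3. Mtmr9 and Rwdd4a fell on all 3 of theirs. Hspa1b, an inducible heat shock protein, lost its call without wild-type replicate 1 or 3 (adjusted p = 0.0527 and 0.0503), Rps27l without wild-type replicate 3 or null replicate 1, and Atp5k in 3 such fits.

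**Figure D3:**
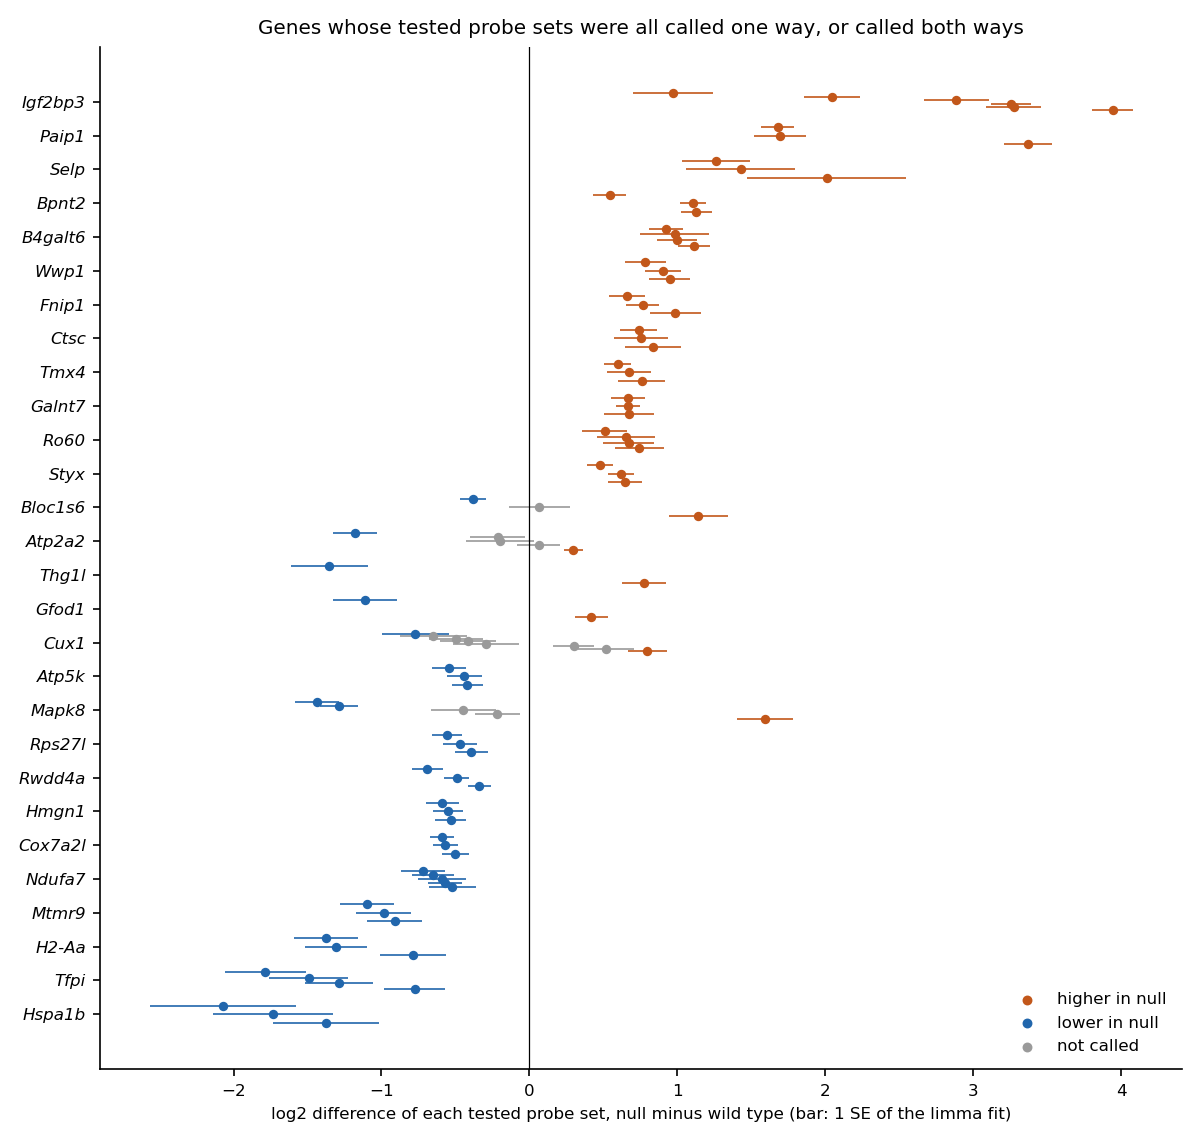
Log2 difference of every tested probe set (null minus wild type, bar of 1 SE) for 22 genes with at least 3 tested probe sets all called one way and for 6 genes with probe sets called both ways. Igf2bp3 spans 0.97 to 3.94 over 6 probe sets, while Mapk8 spans -1.44 to 1.59 across zero.

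Some genes had probe sets called in both directions, 34 in all, and a single value misstates them. Mapk8 encodes the stress kinase JNK1. Its brightest probe set read 235, 197 and 193 in wild type and 76.2, 67.9 and 91.3 in null cells, a difference of -1.29 (SE 0.13, limma adjusted p = 2.53e-05). Another gave -1.44. A dim one read 13.1, 7.21 and 19.6 in wild type and 60.6, 70.9 and 57.6 in null cells and rose by 1.59 (SE 0.19, limma adjusted p = 0.00013). Thg1l, an enzyme of transfer RNA maturation, gave 0.77 and -1.35 on its 2 probe sets, and averaging them turned the sign of its difference, as it did for Atp2a2, Gfod1 and Bloc1s6. Atp2a2, the calcium pump of the endoplasmic reticulum, gave 0.30 on its brightest probe set and -1.18 on a dimmer one. Cux1, a homeobox repressor, had 1 of 8 called in each direction, and Gfod1 and Bloc1s6 were likewise split. The Gfod1 call of its brightest probe set was lost in 3 fits that left out 1 array, with adjusted p up to 0.0837. The files do not say which transcript form each probe set reads.

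Functions were then examined through 109 gene lists, each described by its counts and its median beside those of all genes tested. A share of members called near 7.6% higher or 8.09% lower is no more than the share among all genes. Of the lists, 34 had at least 2 times the overall share of risen genes and 13 at least 2 times that of fallen ones, 4 of them both. The median of all tested genes was -0.04. A bracket after a count of 0 gives the members past an unadjusted p under 0.05. Counts of 4 or fewer in a list moved by over 1.5 times without 1 or another array in most lists, and are given as a description.

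**Figure D4:**
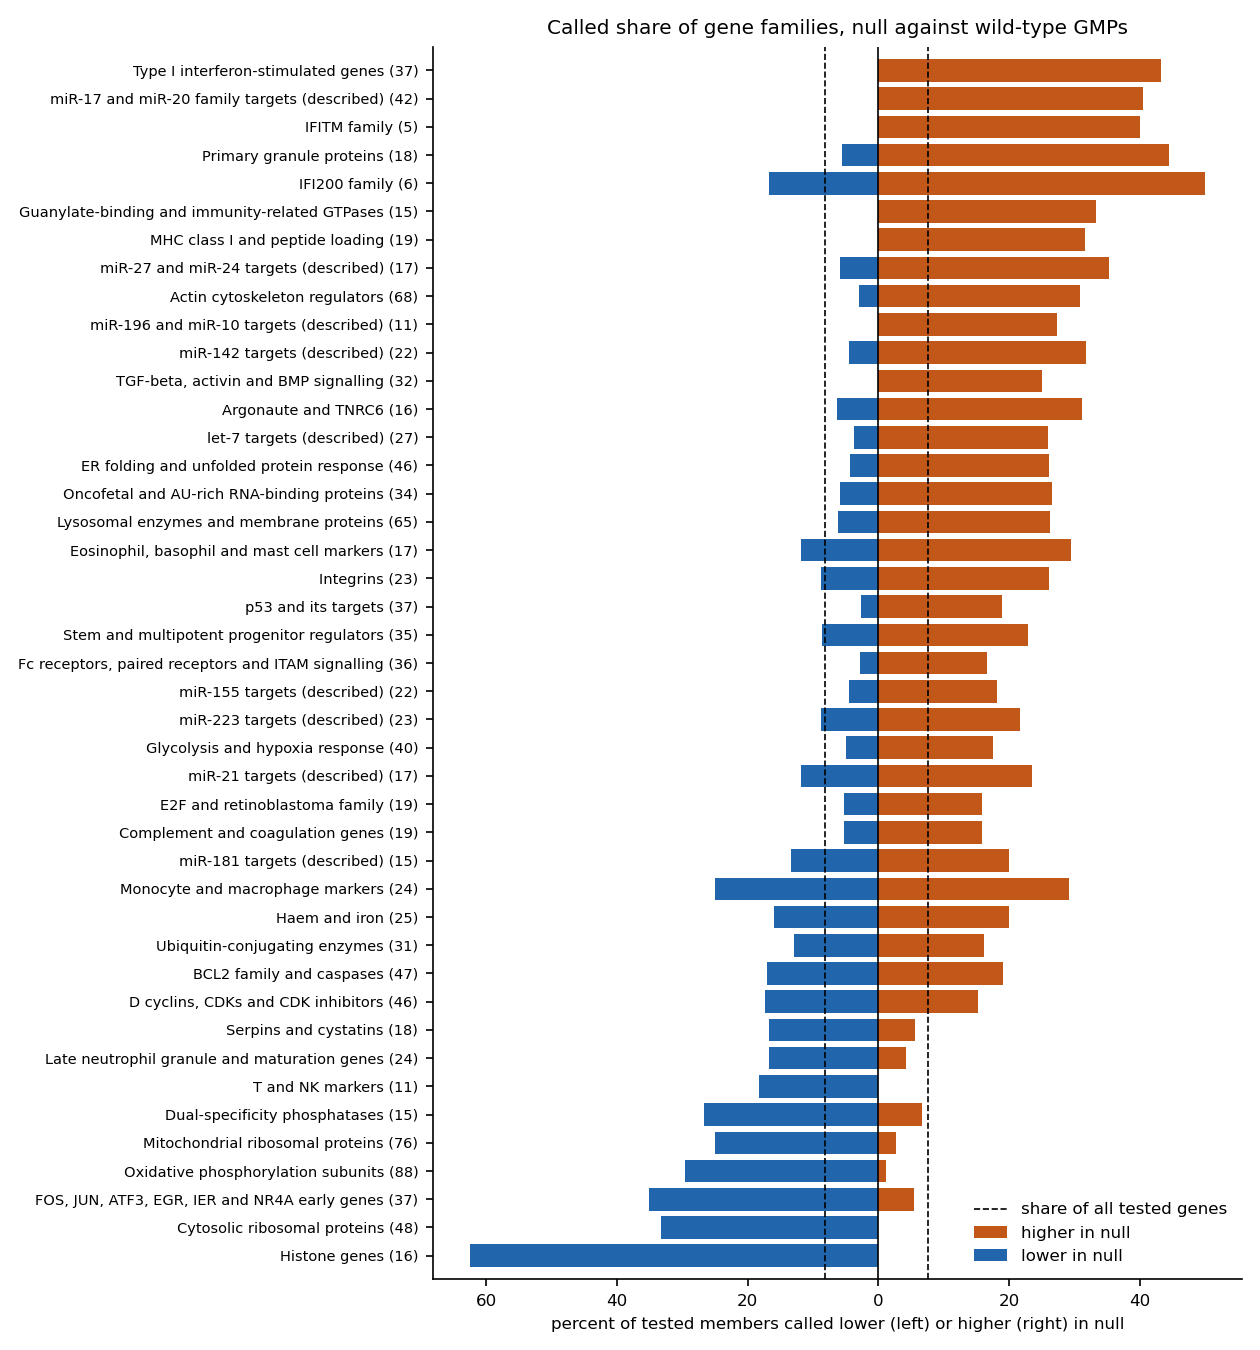
Percent of tested members called lower (left) or higher (right) in null for the 43 lists with at least 2 times the share of all genes in either direction, with the number tested in brackets and dashed lines at 7.6% and 8.09%. Histone genes reach 62.5% on the lower side and interferon-stimulated genes 43.2% on the higher side.

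In each list of described microRNA targets more members rose than fell, though most did not pass. The lists share members, among them Tgfbr1, Tgfbr2, Hif1a, Bcl2l11 and Hoxa9, so their counts are not separate observations. Of 42 tested targets of the miR-17 and miR-20 family, 17 rose (40.5%) and 0 (3 at an unadjusted p under 0.05) fell, with a median of 0.26, or 0.13 when a gene's probe sets were averaged. The risen count dropped to 10 without wild-type replicate 3 or null replicate 1, and by over 1.5 times without wild-type replicate 1. The lists hold targets known from earlier literature, and were chosen with earlier results of these arrays known, so the count is not independent support. Tgfbr2, a receptor chain for TGF-beta, read 136, 145 and 137 in wild type and 317, 359.8 and 351 in null cells. The 3 null arrays lay far above, at 1.23 (SE 0.10, limma adjusted p = 3.45e-06). Cdkn1a encodes the cyclin-dependent kinase inhibitor p21. Its signals were 82.1, 80.9 and 57.3 in wild type and 310.0, 226 and 244 in null cells. All null values exceeded the wild-type ones, by 1.67 (SE 0.14, limma adjusted p = 4.46e-06), and both of its probe sets rose. Fyco1, an adaptor of autophagosome transport, rose by 1.20, Bcl2l11, the death-promoting protein BIM, by 0.80, Hif1a by 0.74 and Map3k5 by 0.68.

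Targets of let-7 gave 7 risen and 1 fallen of 27, with a median of 0.25, or 0.092 with probe sets averaged. The largest after Igf2bp3 was Hmga2, an architectural chromatin protein of fetal cells, which read 42.3, 39.8 and 38.3 in wild type and 238, 345 and 249.7 in null cells. Its groups did not overlap, and 3 of 4 probe sets rose, by up to 3.47. Tgfbr1, the partner chain of Tgfbr2, rose by 1.01 (SE 0.11, limma adjusted p = 3e-05). Targets of miR-142 gave 7 risen and 1 fallen of 22, with a median of 0.14, or -0.0034 with probe sets averaged. All 7 risen ones were called in every fit that left out 1 array. They include Wasl, an activator of actin branching, at 1.18, Itgav at 1.31, Gnaq at 0.88 and Cfl2 at 0.80. Gfi1, a repressor needed for neutrophil development, read 666, 712 and 699 in wild type and 981, 1064 and 1109 in null cells. It was higher on each null array, by 0.59 (SE 0.09, limma adjusted p = 0.000529).

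The remaining families were smaller. Targets of miR-27 and miR-24 gave 6 risen and 1 fallen of 17, with a median of 0.24, but with probe sets averaged only 2 rose and the median was 0.077. Trp53inp1, a p53-induced gene, rose by 1.28 there, and H2ax, the histone marked at DNA breaks, fell by 0.65 on the log2 scale. Targets of miR-223 gave 5 and 2 of 23, down to 3 risen without wild-type replicate 3 or null replicate 2. Igf1r, a growth factor receptor, read 289, 240.0 and 205 in wild type and 449, 425 and 459 in null cells. It stood higher on every null array, by 0.84, and 4 of its 5 probe sets rose. Atp7a, a copper pump, rose by 1.19, and the chemokine Ccl3 fell by 1.65 on the log2 scale. Targets of miR-155 gave 4 and 1 of 22, and those of miR-21 4 and 2 of 17. Reck, an inhibitor of matrix proteases, read 27.9, 50.1 and 28.9 in wild type and 138, 129 and 157 in null cells. It rose without overlap, by 1.71 (SE 0.17, limma adjusted p = 1.57e-05). Bach1 rose by 0.70 and Pde3b by 0.90. Targets of miR-196 and miR-10 gave 3 and 0 (1 at an unadjusted p under 0.05) of 11, with Hoxa9 at 2.19. For miR-181 the counts were 3 and 2 of 15, and the median changed sign with the normalization. For miR-29 they were 2 and 1 of 19, for miR-146 1 and 0 (1 at an unadjusted p under 0.05) of 10, and for miR-150 and miR-126 2 and 0 (1 at an unadjusted p under 0.05) of 16. The miR-146 median was 0.18, or -0.036 with probe sets averaged.

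Some components of the silencing machinery downstream of Dicer1 rose. In the list of Argonaute and TNRC6 genes with their partners, 5 of 16 rose, 1 fell and the others did not pass. Tnrc6a, a scaffold that links Argonaute to deadenylases, read 928, 913 and 868 in wild type and 1617, 1468 and 1626 in null cells. All null arrays were higher, by 0.79 (SE 0.08, limma adjusted p = 1.68e-05), and 7 of its 9 probe sets rose. Ago2, which holds the microRNA, read 219, 155 and 176 in wild type and 289, 271 and 384 in null cells. It rose by 0.74 with 3 of 4 probe sets called, and Tnrc6b by 0.87. Among genes of microRNA precursor processing other than Dicer1, Khsrp, which binds some precursors, rose, of the 21 tested in that list. The Khsrp call was lost in at least 1 fit that left out an array. In deadenylation and decapping, 4 rose and 4 fell of 38, the risen count being 2 without wild-type replicate 2 or null replicate 3. Cnot7, a deadenylase of the CCR4-NOT complex, rose by 0.49. Lsm4, Lsm6 and Lsm7, which share a ring that binds the ends of shortened messages, fell, with -0.75, -0.68 and -0.48.

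RNA-binding proteins of oncofetal and AU-rich type gave 9 risen and 2 fallen of 34, with 5 risen without null replicate 1. Cpeb4, which regulates poly(A) tails, read 466, 362 and 468 in wild type and 789.9, 625 and 836 in null cells. It was higher without overlap, by 0.78 (SE 0.12, limma adjusted p = 0.000677), and both probe sets were called. Zfp36, which marks AU-rich messages for decay, fell by 1.05 on the log2 scale. Splicing factors and hnRNPs lay near the overall share, with 4 risen and 8 fallen of 90. The fallen ones include Hnrnpa1 at -0.65 and the small spliceosome subunits Sf3b5 and Sf3b6 at -0.56 and -0.41, with 2 of 2 and 3 of 4 probe sets called.

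A share of the subunits of the ribosome and of the respiratory chain fell, most by little. Of 88 tested oxidative phosphorylation genes, which make ATP in mitochondria, 26 fell (29.5%) and 1 rose, with a median of -0.22. The fallen count was 12 without null replicate 3, 15 without wild-type replicate 2, over 1.5 times lower also without wild-type replicate 3 or null replicate 1, and 10 with no intensity trend in the variance prior. The fallen complex I subunits include Ndufs5 at -0.71 and Ndufb3 at -0.52. Cox7a2l read 2059, 2252 and 2063 in wild type and 1391, 1572 and 1269 in null cells. The null arrays were all lower, by a difference of -0.59 (SE 0.08, limma adjusted p = 0.000327). Ndufa7 read 229, 237 and 259.7 in wild type and 162, 162 and 152 in null cells. These too did not overlap, at -0.57 (SE 0.12, limma adjusted p = 0.00468).

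Mitochondrial ribosomal proteins gave 19 fallen (25%) and 2 risen of 76, with a median of -0.22. The fallen count was 11 without null replicate 3 and 12 without wild-type replicate 2. Mrpl48 fell on 2 of 3 probe sets, with -0.54 at its brightest. Cytosolic ribosomal proteins gave 16 fallen (33.3%) and 0 (1 at an unadjusted p under 0.05) risen of 48, with a median of -0.21. That count was 5 without null replicate 3, over 1.5 times higher or lower without wild-type replicate 1 or 3, and 4 with no intensity trend. Rplp0, a protein of the ribosomal stalk, read 4359.8, 4361 and 5393 in wild type and 3257, 3677 and 3369.7 in null cells. It was lower on each null array, at -0.45 (SE 0.09, limma adjusted p = 0.00325). Ribosomal protein genes have many processed copies, so signals can be shared among near-identical sequences. The summed signal of the cytosolic list was 228930.0 to 241679 in wild type and 189866 to 222395 in null cells. The Gapdh 3′ to 5′ ratios of the same arrays, given above, ran from 6.56 to 7.44 and from 7.11 to 7.72, and their part in these falls was not tested.

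The share of genes called higher grew with brightness. In 4 equal groups of the tested genes by mean signal, from dim to bright, the median difference was -0.045, -0.11, -0.067 and 0.032. In the same order 0.81%, 4.02%, 9.62% and 15.9% of genes rose, and 1.2%, 7.45%, 13.5% and 10.2% fell. The share of 7.6% risen among all genes is thus lower than that of bright genes alone. The lists were not matched for brightness, so a list of bright genes can reach 2 times that share as bright genes in general do.

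Histone genes fell in the largest share of any list. Of 16 tested, 10 fell (62.5%) and 0 (0 at an unadjusted p under 0.05) rose, with a median of -0.62 (-0.35 with no filter on dim genes), and the fallen count stayed between 8 and 11 in fits without 1 array. H1f2, a linker histone, read 312, 412 and 531 in wild type and 78.9, 158 and 138 in null cells. Its null values all lay under the wild-type ones, at -1.67 (SE 0.21, limma adjusted p = 0.000173), and 2 of 3 probe sets fell. Cenpa, the histone of centromeres, read 606, 718 and 656 in wild type and 358, 363 and 314 in null cells. It was lower without overlap, at -0.91 (SE 0.10, limma adjusted p = 4.48e-05), with 2 of 3 probe sets fallen. H3f3b, a replication-independent histone H3, read 581, 624 and 844 in wild type and 202, 130.2 and 12.3 in null cells. The null arrays were lower but far apart from each other. H2ax fell by 0.65 on the log2 scale. Replication-dependent histone genes are near-identical to each other and their messages lack poly(A) tails, so which copy a probe set reads, and how well it is labelled, are uncertain.

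**Figure D5:**
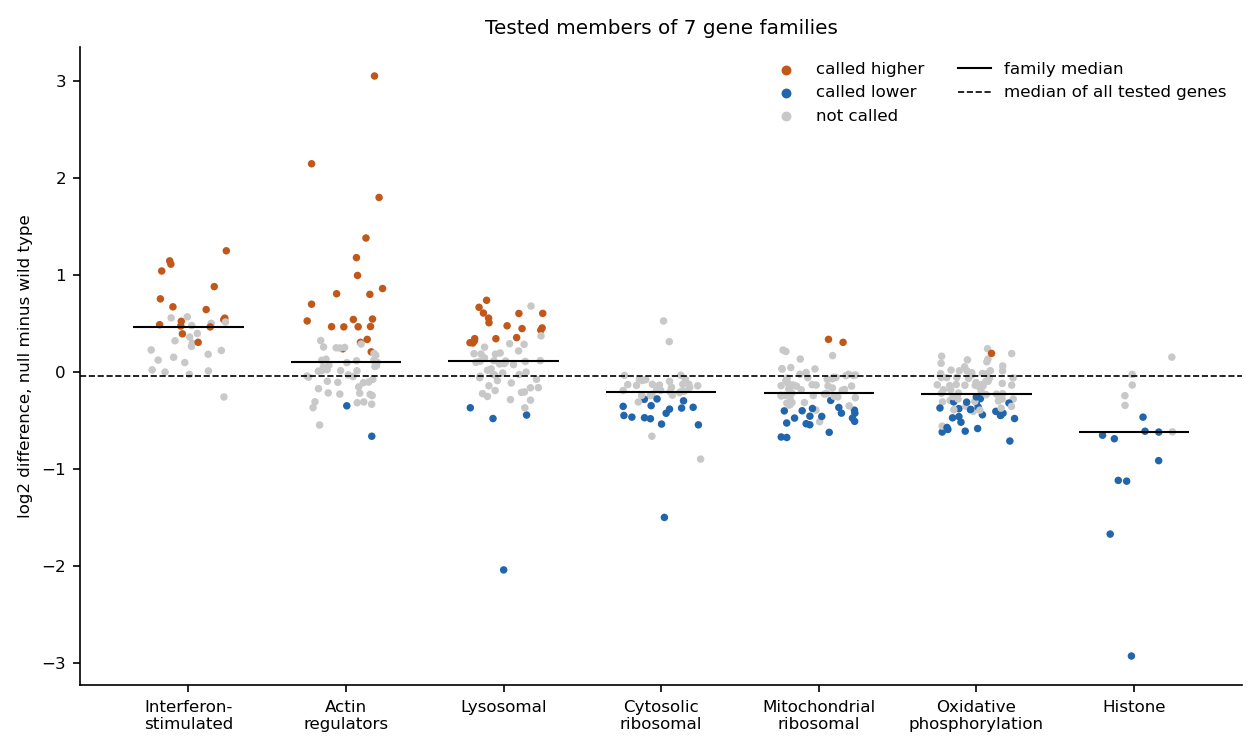
Log2 difference (null minus wild type) of each tested member of 7 families, with called members coloured, the family median as a solid line and the median of all tested genes as a dashed line. Interferon-stimulated genes have a median of 0.46 and histone genes one of -0.62, while the ribosomal and respiratory families sit at -0.21 to -0.22.

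Chromatin and transcription factors changed gene by gene. Lcor, a corepressor of nuclear receptors, read 467, 452 and 458 in wild type and 1719.7, 1546 and 1771 in null cells. The replicates were tight and far apart between groups, giving 1.84 (SE 0.08, limma adjusted p = 8.5e-09), with 3 of 4 probe sets risen. Kat2b, a histone acetyltransferase, read 601, 503 and 545 in wild type and 1267, 1092 and 1290.0 in null cells. Kat2b rose without overlap, by 1.13 (SE 0.09, limma adjusted p = 2.98e-06). Setd7, a lysine methyltransferase, rose by 0.54. In the family of BTB zinc finger genes, mostly repressors, 6 of 40 rose and 0 (1 at an unadjusted p under 0.05) fell, 5 of them in every fit without 1 array. Zbtb41 rose by 1.17, with both probe sets called, and Zbtb42 by 0.95.

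The large family of Zfp genes gave 6 risen and 26 fallen of 285 and a median of -0.13 (-0.052 after cyclic loess). Its fallen share of 9.12% is near that of all genes, and the count was 13 without wild-type replicate 3 and over 1.5 times lower without null replicate 1 or 3. The risen count was 3 without wild-type replicate 1 or null replicate 2. Zfp386 read 347, 345 and 318 in wild type and 109, 126 and 119 in null cells. It was lower on every null array, at -1.43 (SE 0.10, limma adjusted p = 1.02e-06), with both probe sets fallen. Zfp367, which binds promoters of cell cycle genes, rose instead by 1.14 (SE 0.08, limma adjusted p = 1.21e-06). Hmgn3 fell by 1.04 on the log2 scale and Arid1b, a subunit of the BAF remodelling complex, by 0.65. Chd7 rose by 0.72 and Chd4, the ATPase of the NuRD complex, fell by 0.52. Polycomb genes gave 4 risen and 2 fallen of 38, with 1 risen without wild-type replicate 2 or 3 and over 1.5 times fewer without any 1 of the null arrays. Of 12 genes of the Myc and Max network, 0 (0 at an unadjusted p under 0.05) rose and 0 (1 at an unadjusted p under 0.05) fell by limma.

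Several interferon-stimulated genes rose. These are the antiviral genes switched on by type I interferon through the STAT and IRF9 complex. Of 37 tested, 16 rose (43.2%) and 0 (0 at an unadjusted p under 0.05) fell, with a median of 0.46, and 10 rose without wild-type replicate 3. Oas1a makes the second messenger that activates RNase L. Its signals were 129, 142 and 102 in wild type and 323, 287 and 254 in null cells. No null value fell within the wild-type range, and the difference was 1.14 (SE 0.14, limma adjusted p = 0.000146). Parp12, an antiviral ADP-ribosyltransferase, read 45.5, 78.6 and 55.0 in wild type and 148, 131 and 193 in null cells. It was higher on all null arrays, by 1.25 (SE 0.17, limma adjusted p = 0.000301). Rsad2, the antiviral protein viperin, rose by 1.11, Rtp4 by 1.04, Herc6 by 0.88, Cmpk2 by 0.75 and Irf9, part of the inducing complex, by 0.67.

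Promoters of the risen interferon-stimulated genes were read because a known element drives this family. The interferon-stimulated response element was searched as GAAA, any 2 bases and GAAA again, on both strands in windows of 300 bases, from 250 before to 50 after each start in RefSeq (GRCm38.p6). It stood in 6 of the 12 risen genes that have a promoter in the table (50%), in 41 of 762 of all risen genes (5.38%) and in 365 of 10007 of all tested genes (3.65%). The 250 bases before the start are shown for 3 of them on the gene's strand, with the element in capitals. Rsad2 lies at chr12:26456453-26456702, Oas1a at chr5:120907526-120907775 and Trim30a at chr7:104465194-104465443, all on the minus strand. A second Trim30a start in the table, with its window at chr7:104446126-104446375, held no match.
Rsad2: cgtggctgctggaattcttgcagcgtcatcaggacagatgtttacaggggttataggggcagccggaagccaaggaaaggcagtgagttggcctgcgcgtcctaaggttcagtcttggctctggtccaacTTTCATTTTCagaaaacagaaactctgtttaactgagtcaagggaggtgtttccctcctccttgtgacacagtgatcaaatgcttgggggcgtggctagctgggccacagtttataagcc
Oas1a: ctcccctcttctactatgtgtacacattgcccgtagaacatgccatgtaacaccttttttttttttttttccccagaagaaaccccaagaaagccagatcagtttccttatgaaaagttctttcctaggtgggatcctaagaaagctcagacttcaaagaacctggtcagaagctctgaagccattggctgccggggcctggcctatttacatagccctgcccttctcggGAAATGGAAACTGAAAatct
Trim30a: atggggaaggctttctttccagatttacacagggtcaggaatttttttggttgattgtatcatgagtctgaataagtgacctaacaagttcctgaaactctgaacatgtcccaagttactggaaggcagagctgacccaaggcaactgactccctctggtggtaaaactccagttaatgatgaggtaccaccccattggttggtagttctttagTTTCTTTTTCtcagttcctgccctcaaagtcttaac
The capitals begin 120 bases before the start in Rsad2, 20 in Oas1a, where 2 matches overlap, and 36 in Trim30a. In Rsad2 and Trim30a the element lies on the strand opposite to the one printed. Because this element is known to drive the family, a high share among its members follows from the choice of list. The element was not counted in the listed genes that did not rise, and its part in the rise was not tested. A match describes the letters and does not show binding.

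Other interferon-inducible families held genes that rose and genes that did not pass. In the DNA-sensing IFI200 family 3 of 6 rose and 1 fell. The risen count includes Ifi202b, which passed the filter on dim genes only through its null and heterozygous values. Ifi202b of this family read 0.733, 0.952 and 0.755 in wild type and 372, 307 and 314 in null cells. It was near the floor on all wild-type arrays and bright on all null ones, and also on the heterozygous ones, at 242, 269 and 274. As in Igf2bp3, Paip1, Fos and Jun, the heterozygous arrays thus lay nearer to null than to wild type. Since the labels do not tie arrays to donors, a difference between donors cannot be told apart from one between genotypes in such genes. Mndal rose by 0.60 at its brightest probe set, with the other called too, and Ifi204 by 0.94, while Ifi209 fell by 1.15 on the log2 scale. Of 5 tested genes of membrane proteins that block viral entry, Ifitm1 and Ifitm3 rose, by 2.03 and 0.92. Guanylate-binding and immunity-related GTPases gave 5 risen and 0 (1 at an unadjusted p under 0.05) fallen of 15, with 3 risen without null replicate 3. Gbp7 read 670.2, 579 and 506 in wild type and 973, 1007 and 1252 in null cells. It rose without overlap, by 0.87 (SE 0.12, limma adjusted p = 0.000293), with both probe sets called.

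MHC class I and peptide loading genes, which display antigen on all cells, gave 6 risen and 0 (1 at an unadjusted p under 0.05) fallen of 19. B2m, the invariant chain, read 3079, 3693 and 3154 in wild type and 4411, 4495 and 4874 in null cells. Each null array was higher, by 0.48 (SE 0.08, limma adjusted p = 0.000989), with both probe sets called. H2-K1 rose by 0.59 with 2 of 4 probe sets called, and probes of such genes can read several class I copies. Class II went the other way for 2 chains, H2-Aa at -1.37 and H2-Eb1 at -0.92. In the list of class II and dendritic cell genes as a whole, 2 rose and 3 fell of 20.

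Many genes of the actin cytoskeleton and of adhesion rose. Of 68 actin regulators, 21 rose (30.9%) and 2 fell, and the risen count stayed between 15 and 20 in fits without 1 array. Marcks, which holds actin and phosphoinositides at the membrane, read 164, 165 and 167 in wild type and 441, 657 and 758 in null cells. Wild-type values were nearly equal and every null value was above them, by 1.80 (SE 0.15, limma adjusted p = 3.81e-06), and 5 of 6 probe sets rose. Its relative Marcksl1 fell, with a difference of -0.66 and 1 of 4 probe sets called. Cttn, which stabilises branched actin, read 24.1, 117 and 7.66 in wild type and 292, 384 and 419 in null cells. It rose on both probe sets, though wild-type values were spread widely. Nebl and Cap1 rose by 2.14 and 1.38, Wasl by 1.18, Cfl2, an actin-severing protein, by 0.80 at the brighter of 2 called probe sets, and Anln by 0.54.

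Integrins, the adhesion receptors, gave 6 risen of 23, and the 2 fallen genes in that list, Itgb1bp1 and Itgb3bp, are named for binding integrins and are no chains. Itgb3bp did not pass when its probe sets were averaged. Itgav read 760.0, 587 and 655 in wild type and 1723, 1425 and 1884 in null cells. All null arrays were higher, by 1.31 (SE 0.11, limma adjusted p = 4.09e-06). Itgb2, the beta chain of leukocyte integrins, read 281, 234 and 261 in wild type and 799, 539 and 571 in null cells. The groups were apart, and it rose by 1.24 (SE 0.13, limma adjusted p = 4.01e-05). Itgb1 rose by 0.63 and Itga6 by 0.56, each with 2 probe sets called. The motor gene Myo1c, which links membranes to actin, read 129.6, 147 and 119 in wild type and 444, 348 and 399 in null cells. It rose by 1.51 (SE 0.12, limma adjusted p = 2.81e-06). In the list of kinesins, dyneins and myosins 5 rose and 6 fell of 60, with 3 risen without wild-type replicate 2 or null replicate 3. The fallen count dropped by over 1.5 times without any 1 of the 6 arrays or without heterozygous replicate 2 or 3, to as few as 1. Kif5b, a kinesin heavy chain, rose on 4 of 6 probe sets, by 0.58 at its brightest.

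Several lysosomal genes rose. The list gave 17 risen (26.2%) and 4 fallen of 65, with 12 to 17 risen in fits without 1 array. The fallen count was 1 without wild-type replicate 3 and over 1.5 times lower without null replicate 1 or 3. Ctsc read 1558, 1234 and 1471 in wild type and 2954, 2140.1 and 2100.3 in null cells. Every null value exceeded the wild-type ones, by 0.74 (SE 0.12, limma adjusted p = 0.00125). Asah1, a ceramidase, rose by 0.61 (SE 0.09, limma adjusted p = 0.000451), Manba, which removes mannose, by 0.67, and Scarb2, a carrier of glucocerebrosidase, by 0.56. Galc, which degrades galactosylceramide, read 83.3, 87.8 and 99.5 in wild type and 10.6, 14.2 and 13.8 in null cells. It was lower on every null array, by a difference of -2.04 (SE 0.14, limma adjusted p = 1.02e-06).

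Genes of folding in the endoplasmic reticulum gave 12 risen and 2 fallen of 46, but 4 risen without wild-type replicate 2, over 1.5 times fewer without null replicate 1 or 3, and 4 with no intensity trend. Pdia3, a disulfide isomerase, read 2330.5, 2276 and 2424 in wild type and 3435, 3231 and 3273 in null cells. It was higher on all null arrays, by 0.50 (SE 0.06, limma adjusted p = 0.000162). Dnajb9 rose by 0.59 and Hsp90b1 by 0.41, while Herpud1, of the degradation arm, fell by 0.57 on the log2 scale. Vesicle fusion and sorting genes, the SNAREs, sorting nexins and VPS proteins, gave 7 risen and 11 fallen of 104, down to 4 risen without null replicate 1 or 3 and 7 fallen without null replicate 3. Vamp3, a SNARE of recycling endosomes, read 1496, 1479 and 1331 in wild type and 2514, 2611 and 2637 in null cells. It rose without overlap, by 0.85 (SE 0.07, limma adjusted p = 4.09e-06), with 3 of 5 probe sets called. Snx13, Vps54 and Vps39 rose by 1.11, 1.04 and 0.92, and Snx7, Stx16 and Stx5a fell, with -0.88, -0.62 and -0.60. Rab GTPases and their regulators gave 9 risen and 6 fallen of 94, with 5 risen without null replicate 3 and 3 fallen without wild-type replicate 2 or 3 or null replicate 2. Among them are Tbc1d8b at 1.02 and Rab14, risen on 4 of 7 probe sets, by 0.41 at its brightest, though not when its probe sets were averaged (limma adjusted p = 0.185).

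The list headed by proteins of the primary granule, which GMPs begin to make, gave 8 risen and 1 fallen of 18. Its most abundant granule proteins were not called, with Mpo at -0.01, Elane at -0.28, Prtn3 at -0.08 and Ctsg at 0.11. Lyz2, lysozyme, read 1787, 1114 and 1723 in wild type and 3634, 2463 and 2134 in null cells. The null values were higher and spread widely, at 0.82 (SE 0.18, limma adjusted p = 0.0075). Serpinb1a, which protects the cell from its own granule proteases, read 3291, 3119 and 3274 in wild type and 4639.7, 4586 and 4651 in null cells. It rose with tight replicates, by 0.52 (SE 0.06, limma adjusted p = 8.01e-05), with both probe sets called. Prom1, a membrane glycoprotein of progenitors, and Mgl2, a macrophage lectin, rose by 1.13 and 1.02, and neither is a granule protein though both stand in the list. Late granule and maturation genes instead gave 1 risen and 4 fallen of 24. Ngp read 328, 784 and 316 in wild type and 149, 51.9 and 93.1 in null cells. Ltf, lactoferrin, read 103, 174 and 76.5 in wild type and 19.9, 13.4 and 18.2 in null cells. Both were lower on every null array, at -2.12 and -2.09, and the highest wild-type value of each was on replicate 2. Slpi, a protease inhibitor, fell by 1.27 on the log2 scale. In bulk samples such as these, fewer cells of a type and less RNA per cell cannot be told apart.

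Signalling by TGF-beta showed rises at several steps. Its list of ligands, receptors, Smads and regulators gave 8 risen and 0 (1 at an unadjusted p under 0.05) fallen of 32, with a median of 0.20, and 5 risen without wild-type replicate 1 or null replicate 3 or with no intensity trend. Beyond the receptors Tgfbr2 and Tgfbr1, Smad4, the common mediator, read 765, 859.8 and 910.1 in wild type and 1177, 1193 and 1128 in null cells. It was higher on each null array, by 0.46 (SE 0.08, limma adjusted p = 0.00152), with 2 of 3 probe sets called. The inhibitors Skil and Smurf2 rose as well, by 0.78 and 0.70. In PI3K, AKT and mTOR signalling 5 rose and 0 (2 at an unadjusted p under 0.05) fell of 45, with 3 risen without null replicate 1 or 3. Inpp4b, a phosphoinositide phosphatase, rose from 4.39, 12.8 and 5.87 to 37.5, 45.1 and 33.9, a difference of 1.39.

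Among early response genes, more fell than rose. These are transcribed within minutes of a stimulus, and their levels in sorted cells also follow handling. Of 37 listed, 13 fell (35.1%) and 2 rose, with 10 to 12 fallen in fits without 1 array. Fos read 3196, 3953 and 4007 in wild type and 709, 706 and 384 in null cells. Jun read 498, 673 and 569 in wild type and 37.1, 54.2 and 17.6 in null cells. The groups were far apart in both genes, at -2.65 and -3.68. The heterozygous arrays lay low as well, at 984, 659 and 437 for Fos and 69.9, 32.3 and 43.0 for Jun. Feedback phosphatases of the MAP kinases fell too, Dusp1 at -2.91 and Dusp6 at -1.33. Fosl2 rose instead, by 0.82 (SE 0.16, limma adjusted p = 0.00406). Whether handling differed between the groups is not in the labels, and its part in these falls was not tested. The cyclic AMP response element TGACGTCA was searched on both strands in the same windows. It stood in 2 of the 11 fallen early genes that had a promoter sequence, Dusp1 and Ppp1r15a. The Ppp1r15a call was lost in at least 1 fit without an array. The element stood in 4.24% of all fallen genes and in 3.42% of all tested genes. The 250 bases before the start of Dusp1, chr17:26508473-26508722 on the minus strand, are shown with the element in capitals, beginning 143 bases before the start.
Dusp1: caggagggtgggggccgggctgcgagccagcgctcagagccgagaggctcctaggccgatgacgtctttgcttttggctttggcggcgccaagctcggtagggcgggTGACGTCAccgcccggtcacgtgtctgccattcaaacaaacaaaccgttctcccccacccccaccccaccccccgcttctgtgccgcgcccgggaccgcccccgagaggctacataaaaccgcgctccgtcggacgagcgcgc
The CArG box CCWWWWWWGG, where W is A or T, was searched in the same way. It stood in 1 of the 11 fallen early genes, Zfp36, and in 1.5% of all tested genes. A match is a description of the sequence.

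In the RAS and MAP kinase cascade, 8 rose and 6 fell of 71, near the overall shares, and 3 fell without wild-type replicate 2 or 3. Map3k5, Rps6ka3 and Mknk2 rose by 0.68, 0.58 and 0.53. Crk, an adaptor of adhesion signalling, rose on 3 of 5 probe sets, by 0.83 (SE 0.08, limma adjusted p = 1.7e-05) at its brightest. Heterotrimeric G protein genes gave 7 risen and 7 fallen of 72. Gnaq, the alpha subunit that activates phospholipase C, read 297, 316 and 320.3 in wild type and 583, 573 and 588 in null cells. Replicates were tight in both groups, the difference was 0.88 (SE 0.08, limma adjusted p = 7.35e-06), and 5 of 7 probe sets rose. The regulators Rgs1 and Rgs10 and the subunit Gng11 fell, with -1.73, -0.75 and -1.25, as did the phosphodiesterase Pde4b, with -2.00. Fc and paired receptors gave 6 risen and 1 fallen of 36. Fcgr2b, the inhibitory Fc receptor, rose by 0.64 (SE 0.08, limma adjusted p = 0.000155) with 3 of 4 probe sets called, and Cd33, a sialic acid receptor, by 1.37.

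Among p53 and its targets 7 of 37 rose and 1 fell, with 5 to 7 risen in fits without 1 array. Besides Cdkn1a and Trp53inp1, Ccng1 read 774, 871 and 939 in wild type and 1345, 1481 and 1738 in null cells. It rose without overlap, by 0.81 (SE 0.11, limma adjusted p = 0.00025), with all 3 probe sets called. Xpc, a sensor of DNA damage, read 540.4, 534 and 549 in wild type and 895, 979 and 987 in null cells. It too was higher on each null array, by 0.80 (SE 0.08, limma adjusted p = 2.61e-05). Perp rose by 1.40. Among cyclins, kinases and their inhibitors 7 rose and 8 fell of 46, the fallen count being 3 without null replicate 3 and over 1.5 times lower without wild-type replicate 2 or 3 or null replicate 2. A pair of inhibitor genes moved apart. Cdkn2c, which encodes p18 and blocks the D cyclin kinases, read 318, 334 and 286 in wild type and 119.5, 92.5 and 98.3 in null cells. The heterozygous arrays read 143, 141 and 121. Cdkn2c fell without overlap, with a difference of -1.50 (SE 0.12, limma adjusted p = 2.58e-06), where Cdkn1a rose. Ccne2 rose by 0.63 and Ccng2 fell by 0.71 on the log2 scale.

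Mitosis and kinetochore genes gave 9 risen and 10 fallen of 82, close to the overall shares. The fallen ones include centromere genes, Cenpa, Cenpe at -0.48 with both probe sets called and Kif2c at -0.58, and the survivin gene Birc5 at -0.53. Pttg1, securin, rose by 0.84 (SE 0.09, limma adjusted p = 2.66e-05). Death and survival genes gave 9 risen and 8 fallen of 47, and 4 fallen without wild-type replicate 2 and over 1.5 times fewer without null replicate 1. Bcl2, which blocks apoptosis, read 453, 418 and 543 in wild type and 251, 333 and 297 in null cells. It was lower on all null arrays, at -0.66 (SE 0.14, limma adjusted p = 0.00529), with 4 of 5 probe sets fallen. Bcl2l11, its antagonist BIM, read 111, 148 and 152 in wild type and 260.0, 239 and 235 in null cells. It was higher on all null arrays, with 2 of 4 probe sets risen. The death promoter Bad fell, by 0.76 on the log2 scale, with both probe sets called.

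Lists of myeloid lineage markers held both risen and fallen genes, at shares above those of all genes. Monocyte and macrophage markers gave 7 risen (29.2%) and 6 fallen (25%) of 24, and 1 fallen without wild-type replicate 3. That count was over 1.5 times lower also without wild-type replicate 1, null replicate 2 or 3 or any 1 heterozygous array. The list had a summed signal of 15248 to 21808 in wild type and 19475 to 22978 in null cells. Cd14, a receptor for bacterial lipopolysaccharide, read 34.0, 28.4 and 38.2 in wild type and 79.5, 90.2 and 95.7 in null cells. It and its signalling partner Tlr4 rose, by 1.14 and 0.90, while Crip1 fell by 1.24 on the log2 scale. Lgals3 rose by 1.35. Markers of eosinophils, basophils and mast cells gave 5 risen (29.4%) and 2 fallen (11.8%) of 17, with a median of 0.24. Without wild-type replicate 1 or null replicate 2, 3 rose. Their summed signal was 11109 to 13087 in wild type and 12407 to 15473 in null cells. Siglecf rose by 0.95 and Epx, eosinophil peroxidase, by 0.94. Fcer1a, the IgE receptor chain of mast cells and basophils, read 106, 453 and 172 in wild type and 28.6, 42.6 and 30.6 in null cells. It was lower on every null array, and the highest wild-type value was again on replicate 2.

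Markers of more distant cells gave few calls in number. The fallen share was 18.2% of the T and NK markers and 12.5% of the B-lineage markers, against 8.09% of all genes. Of 16 tested B-lineage markers 0 (0 at an unadjusted p under 0.05) rose and 2 fell, and their summed signal ranged over 3432 to 3627 in wild type and 2874 to 2958 in null cells. Ighm, the mu heavy chain, which is transcribed in some progenitors in a sterile form, read 1114, 979 and 1221 in wild type and 436, 429 and 354 in null cells. It fell by 1.42 on the log2 scale, with 2 of 6 probe sets called, while Cd79a was at the floor on all arrays. T and NK markers gave 0 (0 at an unadjusted p under 0.05) risen and 2 fallen of 11, erythroid markers 1 and 1 of 25, and megakaryocyte markers 3 and 0 (0 at an unadjusted p under 0.05) of 21. Summed signals were 1434 to 1557 and 1126 to 1348 for T and NK cells, 2233 to 4471 and 2352 to 2913 for erythroid cells, and 4309 to 4522 and 5098 to 5339 for megakaryocytes. Endothelial and stromal markers gave 0 (2 at an unadjusted p under 0.05) and 0 (1 at an unadjusted p under 0.05) of 15, summing to 501 to 587 and 611 to 634. The sums for B cells and for T and NK cells were lower in null without overlap, and those for megakaryocytes and endothelium higher. What part cells of these types have in any list above was not tested.

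Stem and multipotent progenitor regulators gave 8 risen and 3 fallen of 35, with 4 risen without wild-type replicate 1 or null replicate 1 or 2 and over 1.5 times fewer without null replicate 3. Hoxa9, a homeobox gene of early progenitors, read 279.6, 622 and 153 in wild type and 1264, 1647 and 1362 in null cells. All null arrays lay above the wild-type ones, which were spread widely. In the haem and iron list 5 rose and 4 fell of 25, with 3 risen without wild-type replicate 1, heterozygous replicate 2 or null replicate 2 or 3. Slc40a1, the iron exporter ferroportin, read 138, 201 and 127 in wild type and 499, 395 and 574 in null cells. It rose without overlap, by 1.59 (SE 0.16, limma adjusted p = 1.68e-05). Among 225 solute carriers 15 rose and 5 fell, with 3 fallen without any 1 wild-type array, and the thiamine transporter Slc19a2 rose on both probe sets, by 0.99 at its brightest. Glycolysis and hypoxia genes gave 7 risen and 2 fallen of 40, with 4 risen without wild-type replicate 3 or null replicate 1. Ldhb, a lactate dehydrogenase subunit, rose on all 4 probe sets, by 0.53 at its brightest. Of coagulation and complement genes, Thbd and F5 rose by 1.08 and 1.29 where Tfpi fell.

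In all, 66 of the lists, several of them described above, stayed under 2 times the overall share in each direction. Between 0% and 28.3% of their members were called, and their medians ran from -0.14 to 0.18. They include proteasome subunits with 1 risen and 4 fallen of 48, translation initiation factors with 3 and 2 of 41, nuclear pore and transport genes with 3 and 0 (0 at an unadjusted p under 0.05) of 51, DNA replication genes with 3 and 6 of 59 (2 fallen without wild-type replicate 2), and histone demethylases with 0 (3 at an unadjusted p under 0.05) and 1 of 25. A member that did not pass is not thereby shown to be equal in the groups.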

How the data were processed

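The authors deposited MAS5 signals for 9 Affymetrix arrays, per the submitters' processing notes, and the version and settings are not given in the sources used here. These deposited intensity values have a trimmed mean of 100 on each array. Of 45101 probe sets, 34945 carry 1 gene symbol, 932 several and 9160 none, and each gene was represented by its brightest probe set. Values were taken as log2(signal + 12), with no log2 values deposited. Genes with a mean signal under the 40th percentile (8.49) were left out. That mean was taken over all 9 arrays, so a gene high in only some of the groups could pass. limma 3.58.1 in R 4.3.3 was fitted to all 3 groups with an intensity trend, and p-values were adjusted by Benjamini-Hochberg over all genes tested. The code was tested on simulated data. The labels do not say which arrays came from separate animals, though sex-linked transcripts set wild-type replicate 2 apart from the others. The p-values set each mean difference against a variance estimated over all 9 arrays, and may not cover the variation between animals. The number of arrays limits precision, and 3 against 3 allows no exact permutation p under 0.1.

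The members and gene lists were chosen with earlier results of these data known. Named genes are Dicer1, in each list up to 4 risen and 4 fallen members, by smallest p, that had no overlap and were called in all fits without 1 array, the 12 risen and 12 fallen genes of at least 3 probe sets called one way with the largest median, the 20 largest rises and falls, and up to 6 genes called both ways. Outside this rule, Rsad2, Herc6, Wasl, Trim30a, Khsrp, Csf3r, Irf8, Csf2rb, Fcgr3, Itgb1bp1, Itgb3bp and Ppp1r15a were named after their values were seen, as were Xist, Eif2s3y and the markers of cell type. The fit was repeated with another pseudocount, filter, normalization, variance prior, set of arrays, weighting, replicate block or summary of probe sets.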

Additional observations from a re-analysis of the deposited data

How the results depend on the processing

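The Dicer1 difference kept its sign and its call under every alternative run, from -1.13 to -1.02 without 1 array. Counts depended more on the setting. Without 1 array, genes called numbered 1258 to 1938, with 631 to 938 higher and 627 to 1000 lower, probe sets called 1708 to 2762, and genes with every probe set called the same way 65 to 139. That last count was 71 with no filter on dim genes, 208 with the filter at the 60th percentile and 65 with no intensity trend in the variance prior. With no intensity trend, 1290 genes were called, 609 of them higher, and 1688 probe sets. Averaging a gene's probe sets turned the sign for Chd9 (-0.067), Ptprc (-0.31), Tnks (-0.030), Rabgap1l (0.010), Anxa1 (-0.15), Dna2 (-0.13), Thg1l (-0.29), Gfod1 (-0.35), Bloc1s6 (0.28) and Atp2a2 (-0.25), in each case over probe sets of unlike sign. Of the 339 genes picked by the naming rule above, a further 54 kept their sign under averaging but lost their call. Mapk8, Itgb3bp and Rab14 are among these 54, while 275 genes did not change in sign or call. Averaging called 1604 genes, 40.1% of them higher, against 48.4% in the main setting and 55.2% after cyclic loess. Genes called higher numbered 644 with averaging, against 938 in the main setting. Same-numbered null and wild-type arrays correlated at 0.0041, 0.112 and 0.0677 in their deviations from the group means. Arrays of unlike number were not compared, so these values cannot settle whether the replicate numbers pair the samples. A fit with the replicate number as a block called 2111 genes, against 1937 in the main setting. Medians near zero changed sign under quantile or cyclic loess normalization for the lists of miR-181 targets, Dicer1 and precursor processing, chromatin remodellers, high mobility group genes, granulocyte-monocyte transcription factors, Myc and Max, Notch, SNAREs, kinesins, solute carriers, semaphorins and ephrins, G proteins, BCL2 and caspases, stem regulators, and erythroid and endothelial markers. Except where given, the cause was not tested. Dim genes are limited by the added 12, which holds their differences small.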
